A study of Homo sapiens with 4 samples.

Results

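The genes described here are the 10 enzymes that make serine and pass its carbon into the folate pool (PHGDH, PSAT1, PSPH, SHMT1, SHMT2, MTHFD1, MTHFD2, MTHFD1L, MTHFD2L and ALDH1L2). They were chosen by symbol, because serine is a substrate of serine palmitoyltransferase (SPT), the enzyme whose SPTLC2 subunit the study's hairpin is labelled as directed against. The choice was made with earlier results of these data known. All 10 were found, each once, among the 58735 genes of the count table, and all 10 passed the filter on low counts, as did 15313 genes in all. RNA-seq libraries came from Hey-A8, an established human ovarian cancer cell line, in 2 groups. The 2 shCON libraries carried a control hairpin (genotype "Negative Control") and the 2 shSPTLC2 libraries a hairpin labelled as a knockdown of SPTLC2. The labels disagree on the model: the series design speaks of stable knockdown, while the treatment protocol speaks of plasmids with hairpins against ZDHHC15 or a scrambled hairpin, transfected transiently and harvested after 36 h. Groups follow the sample titles. The labels do not say how many hairpin sequences or clones were used, nor whether replicates are separate cultures, so p-values measure only the spread between these libraries, which may be technical.

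Cells make serine from a glycolytic intermediate in successive steps catalysed by PHGDH, PSAT1 and PSPH. Serine hydroxymethyltransferase then moves a carbon from serine to tetrahydrofolate, leaving glycine. In mitochondria, SHMT2, MTHFD2 or MTHFD2L, and MTHFD1L carry that carbon to formate, which leaves the organelle, while MTHFD1 and SHMT1 handle the same folate intermediates in the cytosol for purine and thymidylate synthesis. Several of these genes are known targets of the stress transcription factor ATF4 and of MYC, and SPT condenses serine with palmitoyl-CoA to start sphingolipid synthesis.

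Total counts were 14464784 to 15084966 per library. SPTLC2 had 871 and 884 counts in the shCON libraries against 587 and 662 with the SPTLC2 hairpin. It fell by 0.52 ± 0.12 on the log2 scale (adjusted p = 0.0063 in edgeR's quasi-likelihood fit, Benjamini-Hochberg). That call ended without shSPTLC2 replicate 1 (adjusted p = 0.13) or replicate 2 (0.052), with a range of 0.00042 to 0.13 over 12 alternative fits. A fit without 1 library keeps 1 library in that group, so the spread it uses comes from the pair of the other group alone. For ZDHHC15 every library held 0 counts, so its level could be as high as 0.195 to 0.206 CPM (read counts scaled to the TMM-adjusted library size) in each. Reads of the mitochondrial genome made up 5.46% and 6.39% of counts in shCON and 10.1% and 8.56% in shSPTLC2, and the part of this in any result was not tested. A list of 10 ovarian carcinoma and epithelial markers also held VIM, which is a mesenchymal gene. CDH1 was at 0 and EPCAM and MUC16 were under 1 CPM in every library, while PAX8, KRT7, KRT8, KRT18 and VIM were abundant. The summed level of the list was 6960 to 7680 CPM in shCON and 6920 to 7140 CPM in shSPTLC2. Most of that sum was VIM, so it is not a measure of epithelial genes. Of the 7 tested, 2 were called higher, PAX8 (273 and 294 CPM against 494 and 444) and MSLN (11.0 and 9.95 against 15.8 and 16.2), 0 lower and 5 not called by edgeR. The 6 fibroblast markers summed to 2.23 to 3.02 CPM in shCON and 5.73 to 7.00 in shSPTLC2 with DCN and LUM at 0, and the 6 blood cell markers summed to at most 0.405 CPM with CD3E at 0. The 4 endothelial markers summed to 59.9 to 61.4 CPM in shCON and 110.0 to 133.0 in shSPTLC2, nearly all of it CDH5. VWF, KDR and PECAM1 were at 2.09 CPM or less, and each was lower in both shSPTLC2 libraries than in either shCON library. Of the 4, edgeR called 1 higher (CDH5) and 1 lower, with 2 not called.

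Of the 10 enzyme genes, 4 were called lower in shSPTLC2 (PSAT1, SHMT2, MTHFD2 and MTHFD1L), 0 were called higher and 6 were not called. A call is an adjusted p under 0.05 in edgeR's quasi-likelihood test over all 15313 tested genes, of which 19.4% were called, 10.4% higher and 9.00% lower. Of all calls 53.6% were higher, or 65.1% with library totals in place of TMM, 47.8% after GC correction and 49.1% without shCON replicate 1. In mean CPM MTHFD1L fell by 34.1%, SHMT2 fell by 33.7% and PSAT1 fell by 31.5%, and MTHFD2 fell least. The libraries of both groups did not overlap for 8 of the 10 genes, 7 of them lower and 1 higher in shSPTLC2, against 61.5% of all tested genes (30.2% lower and 31.3% higher). The median log2 fold change of the 10 was -0.34, and that of all tested genes was 0.0049. Less RNA per cell and fewer cells with the RNA cannot be told apart in these bulk libraries.

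The promoters of the called genes that had a window are shown first, as known regulators of the pathway act through short promoter motifs. The part of these motifs in the changes was not tested. RefSeq windows on GRCh38.p14, from 250 bases before to 50 bases after a gene's start, were given for 7 of the 10 genes, and SHMT2, PSPH and ALDH1L2 had none. Each is written 5′ to 3′ on the gene's strand, with motif matches in capitals. PSAT1 is chr9:78296875-78297174, MTHFD2 is chr2:74198365-74198664, MTHFD1L is chr6:150866083-150866382 and MTHFD1 is chr14:64388103-64388402, all on the plus strand. MTHFD1, which was not called, is printed as the other window with an E-box.
PSAT1: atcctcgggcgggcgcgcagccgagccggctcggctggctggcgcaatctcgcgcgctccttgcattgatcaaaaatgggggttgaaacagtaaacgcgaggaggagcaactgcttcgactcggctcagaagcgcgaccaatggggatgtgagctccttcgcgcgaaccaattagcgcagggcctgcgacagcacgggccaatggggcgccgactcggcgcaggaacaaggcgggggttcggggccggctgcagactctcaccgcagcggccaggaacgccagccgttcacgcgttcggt
MTHFD2: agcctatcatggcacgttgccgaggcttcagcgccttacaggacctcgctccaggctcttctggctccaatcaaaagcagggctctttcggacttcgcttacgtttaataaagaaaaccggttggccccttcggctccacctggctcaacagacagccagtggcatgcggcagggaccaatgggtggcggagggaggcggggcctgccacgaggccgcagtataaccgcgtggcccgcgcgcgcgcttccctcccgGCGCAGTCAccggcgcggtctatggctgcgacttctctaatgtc
MTHFD1L: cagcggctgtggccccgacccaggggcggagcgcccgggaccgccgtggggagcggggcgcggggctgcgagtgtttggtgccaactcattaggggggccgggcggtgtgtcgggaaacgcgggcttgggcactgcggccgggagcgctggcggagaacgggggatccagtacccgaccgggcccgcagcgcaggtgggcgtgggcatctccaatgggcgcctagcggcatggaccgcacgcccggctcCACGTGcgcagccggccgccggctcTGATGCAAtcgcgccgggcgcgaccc
MTHFD1: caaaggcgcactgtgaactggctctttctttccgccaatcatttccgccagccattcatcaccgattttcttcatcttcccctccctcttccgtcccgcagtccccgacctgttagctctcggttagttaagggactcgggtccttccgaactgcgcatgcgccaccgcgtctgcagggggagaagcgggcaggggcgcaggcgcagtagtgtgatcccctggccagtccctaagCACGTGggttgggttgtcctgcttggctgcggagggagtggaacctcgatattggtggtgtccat

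Motifs were searched by their letters on both strands, and no 2 matches overlapped. The C/EBP-ATF response element core, TGATGNAA, which ATF4 binds with C/EBP partners, was found in 1 of the 7 windows, as TGATGCAA from base 25 after the MTHFD1L start, and in 3.62% of all 35116 promoter windows. The E-box CACGTG, bound by MYC with MAX, was found in MTHFD1L (from 1 base before the start) and MTHFD1 (from 15 bases before it), and in 7.26% of all windows. The antioxidant response element core, TGACNNNGC, matched in MTHFD2 (from base 7, on the minus strand, as GCGCAGTCA) and in MTHFD2L (from base 23), and in 13.3% of all windows. The E2F type site TTTCGCGC was in 0 of the 7 windows and 0.515% of all. The windows of PHGDH, PSAT1 and SHMT1 held 0 of the 4 motifs, which says only that these letters are not there. The RefSeq start lay 63523 bases from the GENCODE principal start for PHGDH and 784 for MTHFD1L, where the nearest of 4 windows was taken, and at most 63 for the other 5 genes.

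Serine synthesis. PSAT1, the transaminase of the middle step, was the most abundant member by reads, ranking 115 among tested genes by mean CPM. PSAT1 (ENSG00000135069, hg38 chromosome 9, 78297143 to 78330093, plus strand) had 15536 and 14804 counts in shCON and 10432 and 10816 in shSPTLC2. This is 1048 and 1016 CPM against 709 and 705 CPM. The shSPTLC2 libraries were nearly equal and both lay far below the shCON libraries. PSAT1 fell by 0.55 ± 0.11 on the log2 scale (adjusted p = 0.0030, edgeR).

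PHGDH, the dehydrogenase of the committed first step, differed less. PHGDH (ENSG00000092621, chromosome 1, 119648411 to 119744226, plus strand) had 5361 and 5227 counts in shCON and 4479 and 4623 in shSPTLC2, or 362 and 359 CPM against 305 and 301 CPM. Replicates agreed closely and the groups did not overlap, yet the log2 fold change of -0.25 ± 0.10 did not pass the adjusted test (edgeR adjusted p = 0.10; 95% interval -0.47 to -0.03, unadjusted). PSPH, the phosphatase of the last step, had 55.5 and 63.8 CPM in shCON and 50.5 and 41.8 CPM in shSPTLC2. PSPH (ENSG00000146733, chromosome 7, 56011051 to 56051604, minus strand) was lower in both shSPTLC2 libraries but with replicates spread widely, and was not called (-0.37 ± 0.13, edgeR adjusted p = 0.057). Its pseudogene PSPHP1 held 39 to 57 counts per library beside 642 to 929 for PSPH, so a small part of the PSPH reads may be split between them.

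**Figure D1:**
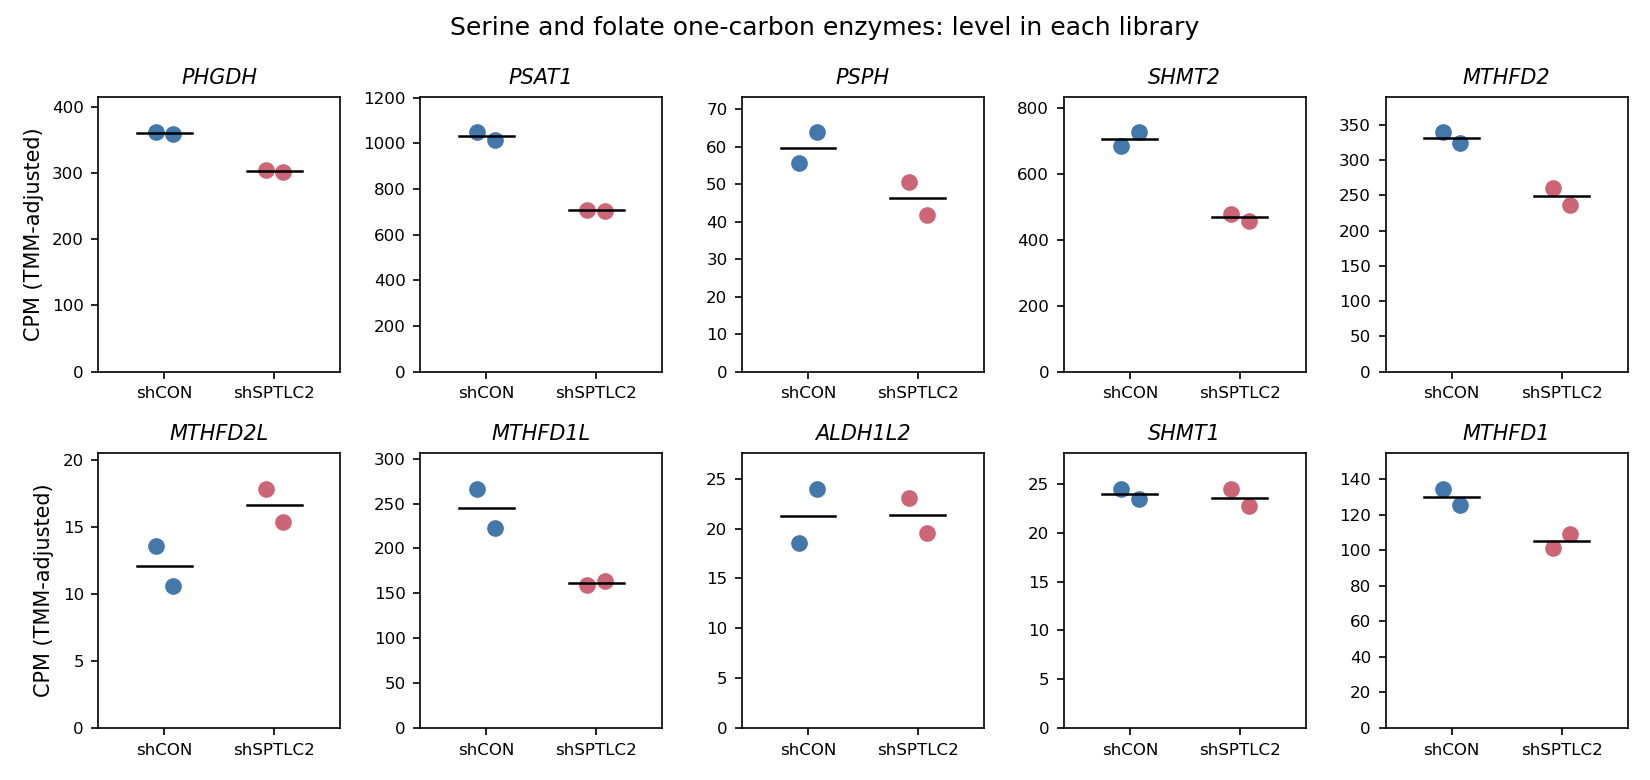
Level of each enzyme gene in each library, in CPM on axes starting at 0, with 1 point per library and a line at the group mean of 2 libraries. PSAT1, SHMT2, MTHFD2, MTHFD1L, PHGDH, PSPH and MTHFD1 are lower in both shSPTLC2 libraries, MTHFD2L is higher in both, and ALDH1L2 and SHMT1 overlap.

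Mitochondrial folate enzymes. SHMT2, which takes the carbon from serine in mitochondria, had the smallest adjusted p of the 10 genes. SHMT2 (ENSG00000182199, chromosome 12, 57229327 to 57234935, plus strand) had 10156 and 10561 counts in shCON and 7036 and 7002 in shSPTLC2. That is 685 and 725 CPM against 478 and 456 CPM, with no overlap. SHMT2 fell by 0.59 ± 0.11 on the log2 scale (adjusted p = 0.0017, edgeR). The antisense gene AC137834.2 shares 427 exon bases with SHMT2 but had 1 to 5 counts.

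MTHFD2, the dehydrogenase and cyclohydrolase of the next step, had 5034 and 4733 counts in shCON and 3840 and 3636 in shSPTLC2, or 339 and 325 CPM against 261 and 237 CPM. MTHFD2 (ENSG00000065911, chromosome 2, 74198562 to 74217565, plus strand) fell by 0.42 ± 0.11 (edgeR adjusted p = 0.013). Its exons overlap those of SLC4A5 on the opposite strand over 1324 bases, and SLC4A5 had 13 to 21 counts. MTHFD2L, which catalyses the same reactions and is the scarcer of the pair here, differed in the other direction. MTHFD2L (ENSG00000163738, chromosome 4, 74114174 to 74303099, plus strand) had 202 and 155 counts in shCON and 263 and 236 in shSPTLC2, or 13.6 and 10.6 CPM against 17.9 and 15.4 CPM. Both shSPTLC2 libraries lay above both shCON libraries, and the gene was not called (0.45 ± 0.17, edgeR adjusted p = 0.075).

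MTHFD1L, the synthetase that releases formate in mitochondria, had the largest fold of the 4 called enzymes and the least equal controls. MTHFD1L (ENSG00000120254, chromosome 6, 150865549 to 151101887, plus strand) had 3954 and 3249 counts in shCON and 2340 and 2511 in shSPTLC2. In CPM this is 267 and 223 against 159 and 164, so the shCON libraries differed from each other more than the shSPTLC2 libraries did, and the groups did not overlap. MTHFD1L fell by 0.60 ± 0.11 (edgeR adjusted p = 0.0019). ALDH1L2 instead oxidises formyl-tetrahydrofolate to carbon dioxide and yields NADPH. ALDH1L2 (ENSG00000136010, chromosome 12, 105019784 to 105084577, minus strand) had 18.6 and 24.0 CPM in shCON and 23.1 and 19.5 in shSPTLC2. The groups overlapped, and the 95% interval of its log2 fold change was -0.33 to 0.33 around 0.00085, so differences within that interval could not be told from 0. ALDH1L2 shares 145 exon bases with C12orf45 on the opposite strand, which had 266 to 349 counts beside 276 to 350 for ALDH1L2.

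Cytosolic folate enzymes. Neither gene was called. SHMT1, the cytosolic counterpart of SHMT2, had 24.5 and 23.5 CPM in shCON and 24.5 and 22.7 in shSPTLC2. The groups of SHMT1 (ENSG00000176974, chromosome 17, 18327860 to 18363563, minus strand) overlapped, with a log2 fold change of -0.02 ± 0.13 and a 95% interval of -0.31 to 0.26. It shares 196 exon bases with SMCR8 on the opposite strand, which had 780 to 1181 counts beside 342 to 364 for SHMT1. MTHFD1, which carries the cytosolic dehydrogenase, cyclohydrolase and synthetase activities in a single protein, had 135 and 126 CPM in shCON and 101 and 109 in shSPTLC2. MTHFD1 (ENSG00000100714, chromosome 14, 64388031 to 64463457, plus strand) was lower in both shSPTLC2 libraries and narrowly missed the threshold (-0.31 ± 0.11, edgeR adjusted p = 0.056). It shares 178 exon bases with ZBTB25 on the opposite strand, which had 252 to 467 counts. Since the strand setting of the counting is not given, reads within the shared exon bases cannot be assigned to either gene of a pair. Shared bases made up 2.69% of the exon bases of SHMT1 (with SMCR8), 1.90% of MTHFD1 (with ZBTB25) and 1.70% of ALDH1L2 (with C12orf45). They made up 8.83% of SHMT2 (with AC137834.2) and 27.2% of MTHFD2 (with SLC4A5).

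**Figure D2:**
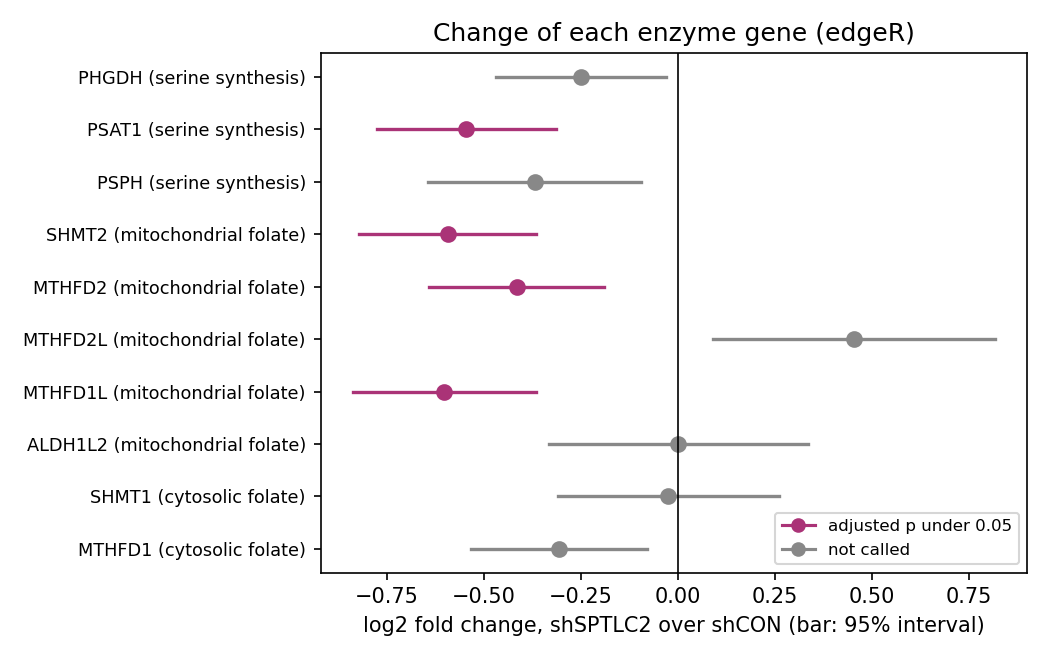
Log2 fold change of each enzyme gene, shSPTLC2 over shCON, from edgeR with its unadjusted 95% interval as a bar. The 4 genes called at an adjusted p under 0.05 lie between -0.60 and -0.42, and MTHFD2L alone lies well above 0.

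Summed over the 10 genes, the level was 2947 and 2895 CPM in shCON and 2130 and 2072 CPM in shSPTLC2. The serine synthesis genes gave 1465 and 1439 CPM against 1065 and 1048, and the mitochondrial folate genes gave 1323 and 1307 against 940 and 892. The cytosolic genes gave 159 and 149 against 126 and 132. PSAT1 supplies most of the serine synthesis sum and MTHFD1 most of the cytosolic sum, so each of these sums largely restates that gene. SHMT2 is the largest part of the mitochondrial sum (684.9 and 724.9 CPM in shCON, 478.5 and 456.2 in shSPTLC2). MTHFD2 and MTHFD1L supply nearly all the rest of it.

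Ratios of read counts within a library need no scaling between libraries. They restate the fold changes of the paired genes given above and are not a separate result. SHMT2 had 27.9 and 30.9 reads per SHMT1 read in shCON and 19.5 and 20.1 in shSPTLC2. MTHFD1L had 1.98 and 1.78 reads per MTHFD1 read in shCON and 1.57 and 1.49 in shSPTLC2. In both comparisons the mitochondrial gene made up less of the pair in each shSPTLC2 library than in either shCON library. MTHFD2 had 24.9 and 30.5 reads per MTHFD2L read in shCON and 14.6 and 15.4 in shSPTLC2, the widest shift of the 5 ratios (-0.88 on the log2 scale). Within serine synthesis, PSAT1 had 2.90 and 2.83 reads per PHGDH read in shCON and 2.33 and 2.34 in shSPTLC2, while the ratio of PSAT1 to PSPH overlapped (18.9 and 15.9 in shCON, up to 16.8 in shSPTLC2). An exact two-sided permutation test of 2 against 2 libraries cannot go below p = 0.333, the value of each of the 4 ratios that did not overlap, and for PSAT1 to PSPH the exact permutation p was 0.667.

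**Figure D3:**
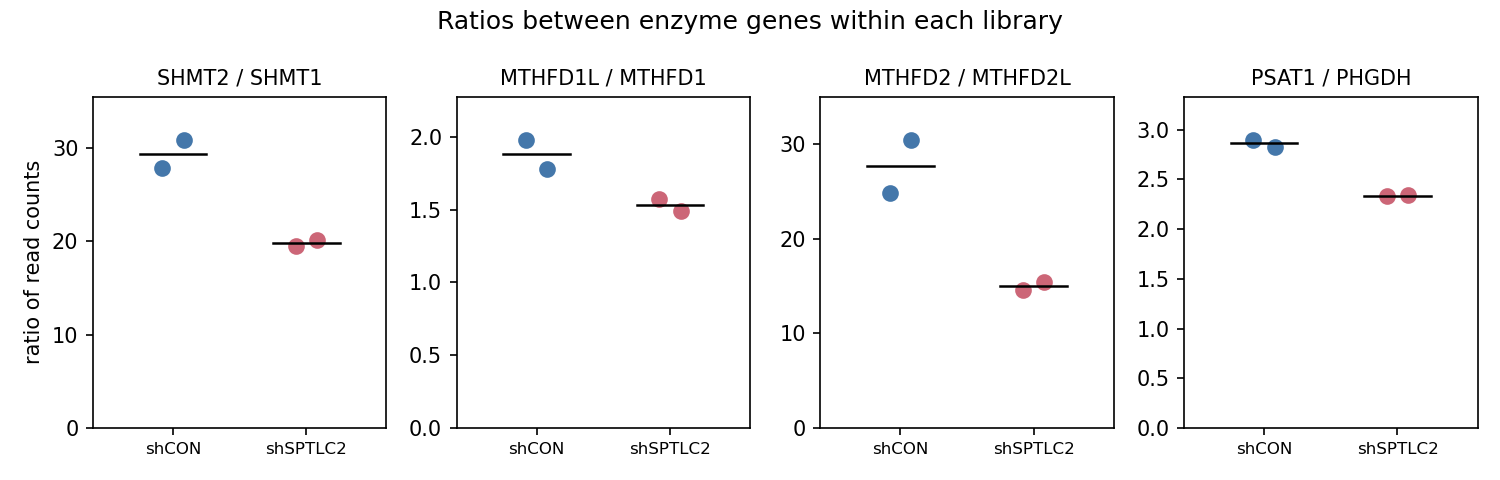
Ratio of read counts between enzyme genes within each library, 1 point per library, with a line at the mean of each group and axes starting at 0. The 4 ratios shown are lower in both shSPTLC2 libraries, MTHFD2 to MTHFD2L most (from 24.9 and 30.5 to 14.6 and 15.4). The ratio of PSAT1 to PSPH, which overlapped between groups, is not shown.

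Levels between genes were compared per length, in the deposited FPKM values, which divide reads by gene length and library size. In shCON, PSAT1 was highest at 470 ± 13.1 FPKM (SD, n = 2), then SHMT2 at 145 ± 4.92, MTHFD2 at 68.0 ± 2.54, MTHFD1L at 48.6 ± 6.43 and PHGDH at 39.0 ± 0.454. PSPH (21.5 ± 1.98), MTHFD1 (13.9 ± 0.778), SHMT1 (3.29 ± 0.124), ALDH1L2 (2.50 ± 0.433) and MTHFD2L (1.23 ± 0.222) followed. No neighbours in this order overlapped between their shCON libraries. In shSPTLC2 the levels were PSAT1 320.0 ± 0.593, SHMT2 95.6 ± 2.95, MTHFD2 50.6 ± 3.34, PHGDH 32.5 ± 0.164, MTHFD1L 31.8 ± 0.715, PSPH 16.6 ± 2.16, MTHFD1 11.1 ± 0.644, SHMT1 3.21 ± 0.158, ALDH1L2 2.48 ± 0.287 and MTHFD2L 1.68 ± 0.174. PHGDH and MTHFD1L, neighbours in that order, lay within the sum of their SDs of each other. The length behind these values is the union of all annotated exons, which is 9217 bases for PHGDH against 2585 for its principal transcript. With principal transcript lengths, an alternative chosen after seeing the data, the shCON level of PHGDH was 139 and it moved from place 5 to place 3, between SHMT2 (277) and MTHFD2 (74.3). MTHFD1 (41.4) then passed PSPH (27.3), and MTHFD2L (5.26) passed ALDH1L2 (2.81).

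Leaving out a library changed several calls. Each such fit keeps 1 library in a group, so its spread comes from the other group's pair alone. Its adjusted p depends on which pair is left. A lost or gained call therefore does not by itself show that a result rests on the library left out. For SHMT2 the log2 fold change was -0.63 and -0.56 without shSPTLC2 replicates 1 and 2, and -0.64 and -0.56 without shCON replicates 1 and 2. Without shSPTLC2 replicate 1, 0 of the 10 genes were called, and without shSPTLC2 replicate 2 only MTHFD1L was called lower (adjusted p = 0.037). Over all genes tested in those fits 3.97% and 6.17% were called, against 19.4% with all 4 libraries. The edgeR adjusted p without shSPTLC2 replicates 1 and 2 in turn was 0.055 and 0.057 for SHMT2 (2.2e-08 to 0.057 over the 12 alternatives), 0.089 and 0.071 for PSAT1 (1.2e-06 to 0.089) and 0.10 and 0.21 for MTHFD2 (0.00032 to 0.21). For MTHFD1L it was 0.074 without replicate 1 (8.2e-10 to 0.074). Over those 12 alternatives the log2 fold change stayed between -0.65 and -0.54 for SHMT2, -0.57 and -0.49 for PSAT1, -0.49 and -0.35 for MTHFD2 and -0.73 and -0.48 for MTHFD1L. Without shCON replicate 1, PSPH was called lower (-0.48) and MTHFD2L higher (0.63). That fit called a larger share of all genes than the fit with all 4 libraries. PSPH was also called lower with no filter on low counts (edgeR adjusted p = 0.028). Without shCON replicate 2, MTHFD1 was called lower (-0.36), and the share of all genes called was again above that with all 4 libraries.

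**Figure D4:**
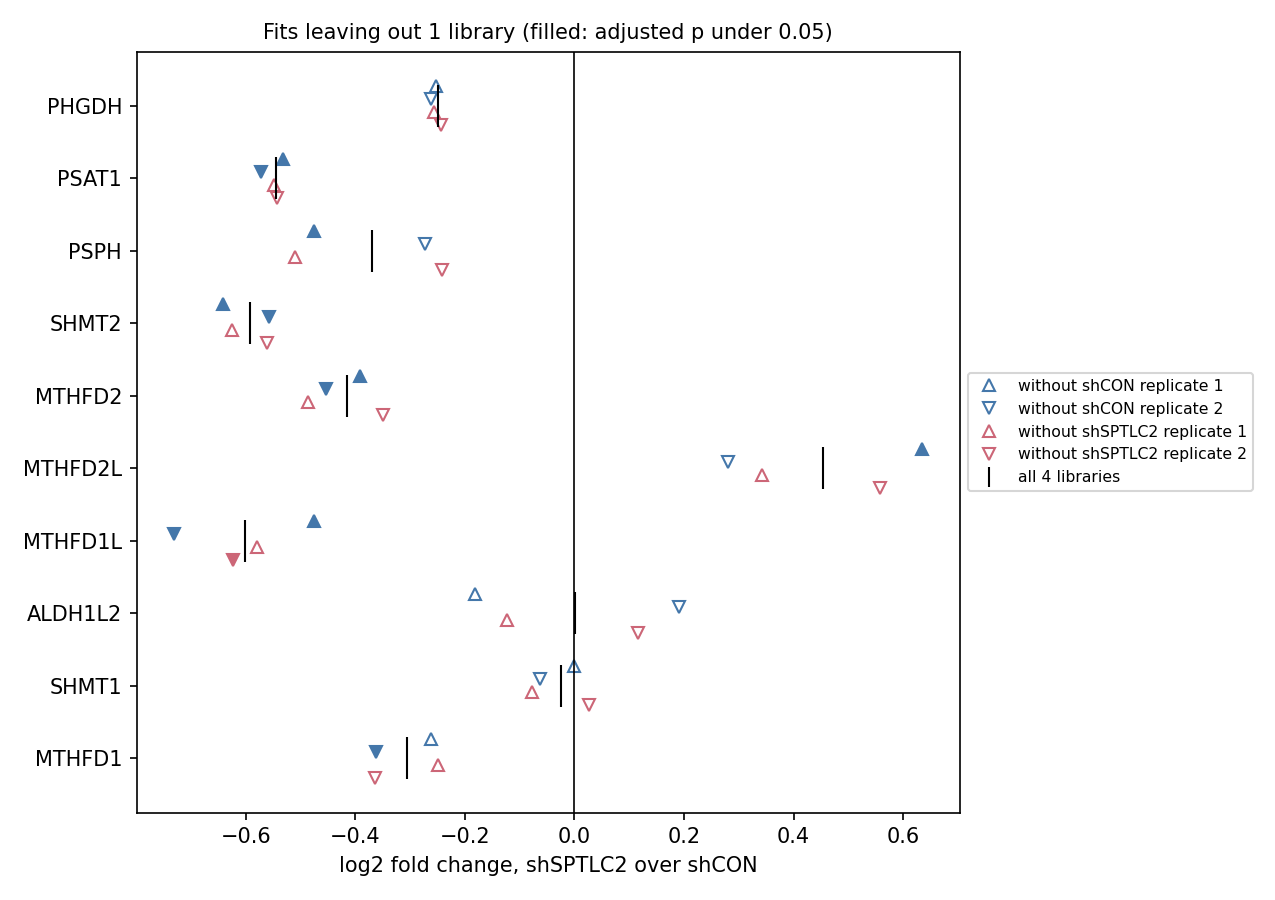
Log2 fold change of each enzyme gene, shSPTLC2 over shCON, in fits leaving out 1 library (triangles, filled where the adjusted p was under 0.05) and with all 4 libraries (black line). The red triangles, without an shSPTLC2 library, are open except for MTHFD1L without replicate 2, and 8 of the 10 genes keep their sign in all 4 fits, while ALDH1L2 and SHMT1 straddle 0.

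The gene whose profile over the 4 libraries was closest to that of SHMT2 was MALL, followed by RPA2 and YJU2. Likeness is the Euclidean distance between log2 CPM profiles centred on each gene's mean, over 4 libraries, and it was 0.018, 0.019 and 0.024 for these genes among 10256 protein-coding non-members whose mean CPM was 5 or more. In all, 52 genes lay within 0.1, so 4 libraries do not single these genes out. MALL had 36.9 and 38.6 CPM in shCON and 25.9 and 24.5 in shSPTLC2 (log2 fold change -0.58 ± 0.13), and like RPA2 and YJU2 was not called without shSPTLC2 replicate 1 or without replicate 2 (adjusted p = 0.068 to 0.084, edgeR). Among the members, the closest pair was PSAT1 and SHMT2 (distance 0.109) and the most distant was SHMT2 and MTHFD2L (1.10).

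Genes around the pathway were described from lists drawn up with earlier results of these data known. The counts of each list are to be read against all tested genes, of which 19.4% were called, 10.4% higher and 9.00% lower. Of 11 other folate enzymes and transporters tested, 2 were called lower, 0 higher and 9 not called, with a median of -0.13. TYMS, which makes thymidylate from the folate carbon, fell from 39.4 ± 2.56 CPM to 24.9 ± 0.236 (SD, n = 2; log2 fold change -0.66 ± 0.13; adjusted p = 0.0024 in edgeR, 8.9e-06 to 0.061 over the alternatives, the highest without shSPTLC2 replicate 1, which ended the call). The most abundant genes of the list were FPGS, which adds glutamates to folate (-0.10 ± 0.10, called lower after GC correction, adjusted p = 0.028, 0.028 to 0.81), and GGH, which removes them (-0.27 ± 0.11, called lower without shCON replicate 2, adjusted p = 0.027, 0.027 to 0.47). Of 5 tested genes of glycine cleavage and methyl-glycine oxidation, 0 were called by edgeR. DLD had a log2 fold change of -0.27 ± 0.12 (called lower without shCON replicate 2, adjusted p = 0.018, 0.018 to 0.46) and SARDH of -0.06 ± 0.18.

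Of 11 methionine cycle and transsulfuration genes, 2 were called lower, 0 higher and 9 not called, with a median of 0.05. MTR, the methionine synthase that uses methyl-folate, fell from 82.7 and 83.7 CPM to 60.1 and 61.4 (-0.45 ± 0.11; edgeR adjusted p = 0.0096, 0.0014 to 0.14). CTH, which releases cysteine from cystathionine, fell from 7.01 and 6.18 CPM to 3.54 and 4.43 (-0.72 ± 0.24; edgeR adjusted p = 0.046, 0.025 to 0.31). The MTR call ended without shSPTLC2 replicate 1 (0.14) or 2 (0.097), and that of CTH without these (0.31 and 0.11), without shCON replicate 1 (0.10) and under 4 other settings. MAT2A and AHCY, the most abundant of the list, overlapped between groups (0.15 ± 0.11 and 0.09 ± 0.11).

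Of 13 purine synthesis genes, 1 was called higher, 1 lower and 11 not called, with a median of -0.0088. GART, one of the enzymes that spend formyl-folate, fell from 229 and 226 CPM to 149 and 182 (-0.46 ± 0.11; edgeR adjusted p = 0.011, 0.00023 to 0.26, the highest without shSPTLC2 replicate 1, which ended the call). PPAT, the amidotransferase of the first committed step, rose from 34.1 and 29.7 CPM to 40.7 and 43.2 (0.40 ± 0.13; edgeR adjusted p = 0.040, 0.0058 to 0.25). The PPAT call ended with DESeq2 (0.10), with the GC content correction (0.16), without shCON replicate 2 (0.14) and without shSPTLC2 replicate 1 (0.17) or 2 (0.25). PAICS (-0.05 ± 0.11) and IMPDH2 (-0.09 ± 0.10), the most abundant, were not called.

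Of 8 serine transport genes, 1 was called higher, 1 lower and 6 not called, with a median of -0.09. SFXN3, a sideroflexin of the mitochondrial serine carrier family, rose from 47.9 and 48.0 CPM to 76.7 and 75.2 (0.66 ± 0.11; edgeR adjusted p = 0.0010) and was called in all 12 alternatives (at most 0.041). SLC38A1, a neutral amino acid carrier of the plasma membrane, fell from 675 and 636 CPM to 502 and 487 (-0.41 ± 0.11; edgeR adjusted p = 0.015, 0.00024 to 0.18), a call that ended without shSPTLC2 replicate 1 (0.17) or 2 (0.18). SLC38A2 was not called (-0.26 ± 0.11), except lower without shCON replicate 1 (adjusted p = 0.026, 0.026 to 0.39).

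Of 13 tested genes of other users of serine, 2 were called higher, 3 lower and 8 not called, with a median of -0.07. The lower genes beside SPTLC2 were the seryl-tRNA synthetases SARS (cytosolic, -0.46 ± 0.11, edgeR adjusted p = 0.0072) and SARS2 (mitochondrial, -1.13 ± 0.33, edgeR adjusted p = 0.025, at 3.10 and 4.80 CPM in shCON and 1.97 and 1.63 in shSPTLC2). The higher genes were PTDSS2, which exchanges serine into phosphatidylserine (0.44 ± 0.12, edgeR adjusted p = 0.020), and SERINC2, a membrane protein of the serine incorporator family (0.52 ± 0.14, edgeR adjusted p = 0.017). All 4 calls ended without shSPTLC2 replicate 1, with adjusted p of 0.16 (SARS, 2.1e-05 to 0.16 over the alternatives), 0.12 (SARS2, 0.0013 to 0.18), 0.23 (PTDSS2, 0.00011 to 0.23) and 0.12 (SERINC2, 0.0051 to 0.14). They also ended without shSPTLC2 replicate 2 (0.077, 0.17, 0.095 and 0.14 in the same order), and without shCON replicate 2 for SARS2 (0.18) and PTDSS2 (0.072). With DESeq2 the calls of SARS2 (0.084) and SERINC2 (0.054) ended, as did that of SERINC2 after GC correction (0.087). SERINC3, the most abundant gene of the list beside SARS, was not called (0.04 ± 0.10).

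Of 11 upstream regulators, 0 were called higher, 3 lower and 8 not called, with a median of -0.28. ATF4 itself, which is controlled largely at translation, had 608 and 673 CPM in shCON and 549 and 470 in shSPTLC2 and was not called (-0.33 ± 0.12; edgeR adjusted p = 0.056, 0.00079 to 0.46). ATF4 was called lower with limma-voom (0.045), with no filter (0.025), after GC correction (0.028) and without shCON replicate 1 (0.00079). MYC fell from 674 and 597 CPM to 364 and 373 (-0.78 ± 0.11; edgeR adjusted p = 0.00028, at most 0.030 over the alternatives). DDIT3, a stress factor downstream of ATF4, fell from 19.5 and 25.1 CPM to 10.9 and 8.73 (-1.19 ± 0.18; edgeR adjusted p = 0.00038, at most 0.012). ATF3 was also called lower (-0.45 ± 0.15; edgeR adjusted p = 0.047, 0.0053 to 0.29), a call that ended under 8 of the 12 alternatives, with 0.17 without shCON replicate 2 and 0.29 and 0.16 without shSPTLC2 replicates 1 and 2.

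Of 13 other ATF4 targets, 8 were called lower, 1 higher and 4 not called, with a median of -0.48, larger in size than the -0.34 of the serine and folate enzymes. SESN2 (-1.43 ± 0.11), DDIT4 (-1.26 ± 0.11), ATF5 (-1.20 ± 0.16) and TRIB3 (-0.78 ± 0.11) fell and were called in all 12 alternatives (adjusted p at most 0.020 in edgeR, DESeq2 or limma). The amino acid exchanger subunit SLC3A2 fell from 571 and 559 CPM to 420 and 390 (-0.48 ± 0.11; edgeR adjusted p = 0.0058, 3.8e-05 to 0.13), a call that ended without shSPTLC2 replicate 1 (0.085) or 2 (0.13). Its partner SLC7A5 overlapped between groups (-0.21 ± 0.12; edgeR adjusted p = 0.26, 0.012 to 0.79) and was called lower without shCON replicate 2 (0.012) and after GC correction (0.044). Of 10 proliferation genes, 1 was called higher (RRM2, 0.53 ± 0.15), 4 lower (CCNB1, TYMS, BIRC5 and TOP2A, -0.66 to -0.37) and 5 not called, with a median of -0.27. MKI67, the usual proliferation marker, overlapped between groups, with 248 and 344 CPM in shCON and 281 and 283 in shSPTLC2 (-0.07 ± 0.13; called lower without shCON replicate 1, -0.29, adjusted p = 0.026, and at 0.18 without shCON replicate 2). Without shSPTLC2 replicate 1 none (0) of the 5 proliferation calls remained in edgeR (0.056 to 0.28), and without replicate 2 only TYMS was called (the others 0.059 to 0.26). RRM2 was also not called without shCON replicate 2 (0.30, adjusted p = 0.062). The part of the genes called in these lists in the result for the enzymes was not tested.

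**Figure D5:**
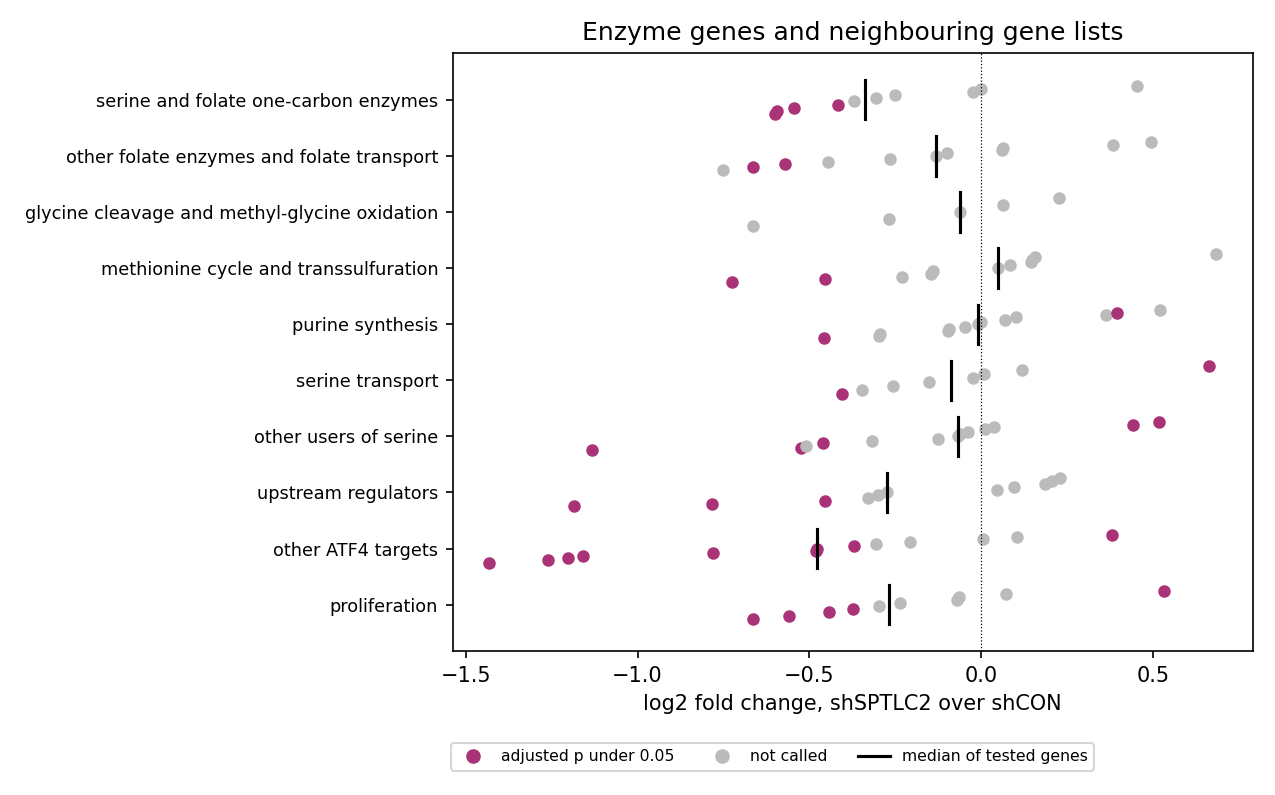
Log2 fold change, shSPTLC2 over shCON, of each tested gene of the serine and folate enzymes and 9 neighbouring lists (points, coloured where the adjusted p was under 0.05), with the median of each list as a black line. Medians run from -0.48 for other ATF4 targets to 0.05 for the methionine cycle, and the serine and folate enzymes have -0.34.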

How the data were processed

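Raw read counts, as deposited, are given per Ensembl gene in 1 column per library. The deposited FPKM values equal each count divided by the table's gene length and by 1 factor per library, within a relative tolerance of 1e-09, and were used only to compare levels between genes. Per the submitters' processing notes the tools were HISAT2, StringTie and SAMtools on hg38, with no versions. Which program counted, and with which strand setting, was not found in the labels or headers. All 58735 gene IDs, starts and ends matched GENCODE 29, whose exon unions equal the table's gene lengths.

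Tests used edgeR 4.0.16 in R 4.3.3 on all 4 libraries: filterByExpr (minimum count 10, minimum total 15), TMM, a robust quasi-likelihood fit and a two-sided F test, with Benjamini-Hochberg adjustment over all tested genes. Each SE equals the size of the log2 estimate divided by the root of its F statistic. The fit was tested on simulated data. Alternatives were DESeq2 1.42.0, limma-voom (limma 3.58.1), library totals, other filters, a non-robust fit, a replicate block, a GC content correction by transcript GC and leaving out each library. Limits for 0 counts use 3 counts and cover counting error only.

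The members and lists were chosen with earlier results of these data known. The rule for naming list genes took every called gene of a list with 6 or fewer calls, otherwise the 4 with the smallest adjusted p, and the 2 most abundant, and for SHMT2 the 3 protein-coding genes of nearest profile. PSPHP1, overlapping genes and the markers were named outside it, after their values were seen. One gene that this rule took is not reported here.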

Additional observations from a re-analysis of the deposited data

How the results depend on the processing

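The number of enzyme genes called lower was 4 and that called higher 0 in the fit described. Over the fits leaving out 1 library, 0 to 5 were called lower and 0 to 1 higher. With no filter on low counts 5 were called lower, the added gene being PSPH. With library totals in place of TMM 1 gene (MTHFD2L) was called higher, and with the replicate block 1 (the same gene). Over all genes, calls numbered 2971 and ran from 640 (without shSPTLC2 replicate 1) to 4027 (without shCON replicate 1), with 994 without shSPTLC2 replicate 2. With library totals 65.1% of calls were higher, against 53.6% with TMM. The log2 fold change of SPTLC2 ran from -0.58 to -0.47 in these fits and was not called without shSPTLC2 replicate 1 or without replicate 2. Genes close to 0 changed sign: SHMT1 (0.0298 with library totals, -0.0773 to 0.026 leaving out a library), ALDH1L2 (-0.0061 with DESeq2, -0.0094 without a filter, -0.18 to 0.19 leaving out a library), PAICS (0.0082 with library totals, -0.13 to 0.0275), SARDH (-0.25 to 0.104), AHCY (-0.0039 to 0.16), SERINC3 (-0.017 to 0.0909) and MKI67 (-0.29 to 0.18). The cause was not tested. The labels do not say that equal replicate numbers mark a shared day, and deviations of libraries with the same number had a correlation of -0.013 over genes. The replicate block called 3307 genes, PSPH lower (-0.37, adjusted p = 0.036) and MTHFD2L higher (0.46, adjusted p = 0.046), and ended no call of the 10 enzymes. Genes with few reads, such as MTHFD2L and ALDH1L2, had the widest intervals.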
